A study of Mus musculus with 12 samples.

Results

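The 32 genes described here encode the enzymes of cholesterol and fatty acid synthesis and the proteins that set their level, out of 21899 genes measured by RNA sequencing of mouse kidney. They were taken by symbol and fall into 14 enzymes of the sterol branch, 13 enzymes of the fatty acid branch and 5 regulators and carriers (Srebf1, Srebf2, Scap, Insig1 and Stard4). All 32 had a row in the deposited table, and 31 passed the filter on low values (0.3 FPKM in 3 or more libraries). There were 4 groups with 3 libraries each. The db/db-GABP-KD group consisted of db/db mice in which GABP was knocked down, and the db/db-veh group of db/db mice given vehicle, labelled as diabetic nephropathy. The db/m-GABP-OE group consisted of db/m mice in which GABP was overexpressed, and the db/m-veh group of db/m mice given vehicle, labelled as normal controls. Leptin cannot signal in db/db mice, whose receptor gene is mutated on both copies, and they grow obese and diabetic. The db/m controls carry 1 mutated copy and stay lean. GABP is an ETS family transcription factor with a DNA-binding alpha subunit and a beta subunit. The sources used here do not give how GABP was raised or lowered, in which cells, or the age and sex of the mice. Kidneys of 6 mice served each group and 3 tissues were mixed for an extraction. The sources do not say either if the 3 libraries in a group come from separate pools, so p-values measure the spread between these libraries, which may be technical.

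Cells build both cholesterol and fatty acids from cytosolic acetyl-CoA. In the sterol branch, acetyl-CoA units are joined to HMG-CoA and mevalonate, then to isoprenoids, squalene and lanosterol, and lanosterol is trimmed to cholesterol. In the fatty acid branch, acetyl-CoA is carboxylated, assembled into palmitate, elongated, desaturated and esterified. The transcription factors SREBP-2 (gene Srebf2) and SREBP-1 (gene Srebf1) switch on the sterol and the fatty acid branch, with overlap. Both are held in the endoplasmic reticulum by SCAP and INSIG proteins when sterols are plentiful, and are cut and released to the nucleus when sterols are scarce. In the kidney, lipid made by these routes has been studied as a contributor to lipid build-up in the diabetic tubule and glomerulus.

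Promoter sequences of 25 of the 32 genes were found in RefSeq (build GRCm38.p6), each as the 250 bases before the start site. The entries for Fdps, Fdft1, Sqle, Stard4, Scd1, Scd2 and Fads1 were not in that table. Shown here are the promoters of the sterol enzymes Hmgcs1 (chr13:119690101-119690350, plus strand) and Msmo1 (chr8:64733579-64733828, minus strand), which had the smallest p in their branch between the vehicle groups. Also shown are Acacb (chr5:114165268-114165517, plus strand), the fatty acid enzyme with a table entry and the smallest p there, and Cyp51 (chr5:4104698-4104947, minus strand), added after its GABP-OE values were seen. Capitals mark the sterol regulatory element core TCACNCCAC and the CCAAT box, on either strand, so that a CCAAT box on the other strand reads ATTGG.
Hmgcs1: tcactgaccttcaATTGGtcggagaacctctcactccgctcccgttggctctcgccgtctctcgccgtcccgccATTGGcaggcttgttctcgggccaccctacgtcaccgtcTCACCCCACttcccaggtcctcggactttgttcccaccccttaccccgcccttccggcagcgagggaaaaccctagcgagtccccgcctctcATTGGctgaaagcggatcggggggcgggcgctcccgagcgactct
Msmo1: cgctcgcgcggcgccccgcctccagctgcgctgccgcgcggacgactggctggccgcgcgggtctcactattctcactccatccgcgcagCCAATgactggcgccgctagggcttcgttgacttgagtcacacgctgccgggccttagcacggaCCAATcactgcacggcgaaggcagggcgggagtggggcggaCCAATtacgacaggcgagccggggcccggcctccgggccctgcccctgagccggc
Cyp51: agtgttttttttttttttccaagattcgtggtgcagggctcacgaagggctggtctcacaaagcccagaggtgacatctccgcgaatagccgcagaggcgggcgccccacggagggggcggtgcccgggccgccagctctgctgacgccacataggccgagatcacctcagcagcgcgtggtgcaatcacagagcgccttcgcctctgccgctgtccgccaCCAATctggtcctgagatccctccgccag
Acacb: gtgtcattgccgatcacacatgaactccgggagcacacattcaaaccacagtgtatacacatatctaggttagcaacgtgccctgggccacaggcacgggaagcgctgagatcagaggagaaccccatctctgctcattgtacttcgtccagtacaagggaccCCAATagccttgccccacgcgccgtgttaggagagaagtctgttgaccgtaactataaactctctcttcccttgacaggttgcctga
The start site used for Acacb lies within the gene as GENCODE M21 draws it, downstream of its annotated start, so this window belongs to an internal start.

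The TCACNCCAC core was present in 1 of the 25 members, Hmgcs1, at 137 to 129 bases before the start, and in 1.22% of the 27025 genes in the table. CCAAT boxes were present in all 11 sterol enzymes with an entry, in 6 of 10 fatty acid enzymes and in 3 of 4 regulators, against 37.5% of all genes. The fatty acid enzymes with a CCAAT box were Acacb, Fasn, Elovl1, Elovl5, Acss2 and Gpam. Hmgcs1 and Msmo1 held 3 CCAAT boxes each, and Cyp51 and Acacb held 1 each. The letters CCGGAAGT, an ETS site of the kind GABP binds, were in 0 of the 25 windows and in 3.23% of all genes. The shorter ETS core CGGAAG, which CCGGAAGT contains, was in 6 of 25 (Srebf2, Hmgcs1, Pmvk, Dhcr7, Acss2 and Gpam) and in 15.3% of all genes. No CCAAT box overlapped the TCACNCCAC match of Hmgcs1. These matches describe the letters in the windows and say nothing on whether a factor was bound.

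Libraries held 6778005 to 9697446 fragments. Transcripts of the 13 mitochondrial protein genes made up 86.0% of them in db/db-veh 2, the highest share, and 48.0% in db/db-GABP-KD 1, the lowest. FPKM (fragments per kilobase of exon and per 1e+06 fragments) divides by all fragments, mitochondrial ones included. Groups were compared with limma, a linear model with pooled variances, on log2(FPKM + 0.5) over all 12 libraries. P-values were adjusted over all genes tested, and called means an adjusted p under 0.05. Over all 12897 tested genes the median log2 fold change was -0.24 in db/db-veh relative to db/m-veh. It was 0.38 in db/m-GABP-OE, with db/m-veh as control, and 0.42 in db/db-GABP-KD, with db/db-veh as control. Changes are therefore given as deposited and, where it matters, after median of ratios scaling, which sets the typical nuclear gene equal across libraries and brought these medians to 0.01, 0.04 and 0.00. Gabpa, the DNA-binding subunit, stood at 6.62, 2.66 and 3.40 FPKM in the libraries labelled db/db-GABP-KD and at 2.20, 2.17 and 1.63 FPKM in db/db-veh. Its log2 fold change there was 0.84, and 0.31 after median of ratios, and it was not called. It stood at 3.45, 3.35 and 3.71 FPKM in the libraries labelled db/m-GABP-OE and at 1.79, 2.32 and 2.54 FPKM in db/m-veh, with a log2 fold change of 0.57 (limma adjusted p = 0.43). After median of ratios these 2 groups overlapped, at 2.74, 2.58 and 2.80 against 1.83, 2.83 and 2.35, with a log2 fold change of 0.19. Gabpb1, a beta subunit, had log2 fold changes of 0.51 with GABP-KD and 0.61 with GABP-OE, and 0.05 and 0.28 after median of ratios, and was not called. Gabpa as deposited was thus higher, not lower, in the libraries labelled as a knockdown. Neither this nor its higher values in the libraries labelled as overexpressing it passed the test, and each direction given below is that of the labels. Kidney markers were present throughout, with 5 proximal tubule genes summing to 169 to 909 FPKM, and of 5 adrenal cortex markers Cyp11a1, Cyp11b1 and Cyp21a1 were listed at 0 in all 12 libraries. The other two were not at 0 throughout: Star averaged 0.405 to 0.478 FPKM in the 4 groups, and Hsd3b1 stood at 2.31, 0 and 3.93 FPKM in db/db-veh, against 0, 0.0791 and 0.231 FPKM in db/m-veh (log2 fold change 1.63, limma adjusted p = 0.28). Library db/db-GABP-KD 1 stood apart, with the largest size factor (1.71) and the smallest library weight (0.143), limma's measure of how closely a library follows its group.

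FPKM is per length of exon, so genes can be ranked by it, though the order differed between groups. The highest mean over all 12 libraries belonged to Hmgcs1, the HMG-CoA synthase that opens the sterol branch, at 23.9 FPKM. Elovl1, which elongates saturated and monounsaturated very-long-chain fatty acids, followed at 11.1 FPKM. In db/db-GABP-KD, Elovl1 (10.9 FPKM) stood above Hmgcs1 (8.54 FPKM), and in db/db-veh they averaged 6.60 and 6.88 FPKM. Mvd, which decarboxylates mevalonate diphosphate, averaged 6.49 FPKM, and Acly, which makes cytosolic acetyl-CoA from citrate, averaged 5.70 FPKM. At the low end, the lanosterol synthase Lss averaged 0.705 FPKM and Acaca, the cytosolic acetyl-CoA carboxylase, averaged 0.505 FPKM. Acacb, the carboxylase at the mitochondrial surface whose product restrains fatty acid import, averaged 2.07 FPKM. Fdps, which makes farnesyl diphosphate, was listed at 0 in 11 libraries and at 0.0526 FPKM (2 fragments) in db/m-GABP-OE 1. It has pseudogene copies in the mouse genome, so its level is uncertain, and it was not tested.

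The spread over the 12 libraries was widest for Idi1, from 0.111 FPKM (db/db-veh 3) to 3.19 FPKM (db/m-GABP-OE 3). The lowest Idi1 value rests on 3 fragments and the highest on 96, so the width of this range is uncertain. Next was Cyp51, from 0.558 FPKM (19 fragments, db/db-veh 2) to 15.3 FPKM (581 fragments, db/m-GABP-OE 3). The spread was narrowest for Elovl5, from 2.58 FPKM (db/db-veh 2) to 6.00 FPKM (db/m-GABP-OE 2). Library db/db-veh 2, with the highest mitochondrial share, was the lowest of all 12 for 22 of the 31 tested members as deposited and for 6 after median of ratios. Library db/db-GABP-KD 1, with the lowest mitochondrial share, was the highest for 10 members as deposited and for 4 after median of ratios. Those 10 included Srebf1 at 16.3 FPKM, Gpam at 13.5 FPKM and Elovl1 at 18.4 FPKM, and also Fdft1, the squalene synthase, at 5.06 FPKM. The highest value of the other sterol enzymes was in a db/m library for Mvd (11.9 FPKM), Nsdhl (9.92 FPKM), a dehydrogenase of the C4 demethylation, Sqle (3.49 FPKM) and Dhcr7 (1.28 FPKM), the final reductase of one route to cholesterol. In the fatty acid branch the same held for Acly (9.75 FPKM), Fads2 (8.79 FPKM), the delta-6 desaturase, Fads1 (7.26 FPKM) and Elovl6 (3.08 FPKM), which lengthens palmitate to stearate.

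The branches were first set side by side within each library. The mean log2(FPKM + 0.5) of the 13 measured sterol enzymes, minus the median of all genes tested in that library, was -0.60, -0.33 and -0.12 in db/db-GABP-KD and -0.05, -0.10 and -0.08 in db/db-veh. It was 0.35, 0.22 and 0.46 in db/m-GABP-OE, against 0.38, 0.56 and 0.14 in db/m-veh. All 6 db/db libraries lay below 0 and all 6 db/m libraries above it. The same level of the 13 fatty acid enzymes was 0.30, 0.30 and 0.63 in db/db-GABP-KD and 0.54, 0.39 and 0.52 in db/db-veh. It was 0.58, 0.62 and 0.80 in db/m-GABP-OE, against 0.65, 0.32 and 0.51 in db/m-veh. The fatty acid level was above 0 in all 12 libraries, and the ranges of the vehicle groups overlapped. Taken within a library, the sterol level minus the fatty acid level averaged -0.76 ± 0.14 in db/db-GABP-KD and -0.56 ± 0.06 in db/db-veh (log2, SD, n = 3 each). The average was -0.32 ± 0.08 in db/m-GABP-OE, against -0.14 ± 0.33 in db/m-veh. This difference does not depend on how libraries are scaled, apart from the effect of the pseudocount. The highest db/db library was at -0.48 and the lowest db/m library at -0.40. No test was run on these scores, because the genes were chosen with results of these data known. They describe the members alone. Between the vehicle groups, 10 further sterol synthesis genes had a median log2 fold change of -0.26. For 23 further fatty acid and glycerolipid genes it was -0.53, against -0.24 over all genes, so the lower sterol branch was not seen in the further genes.

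**Figure D1:**
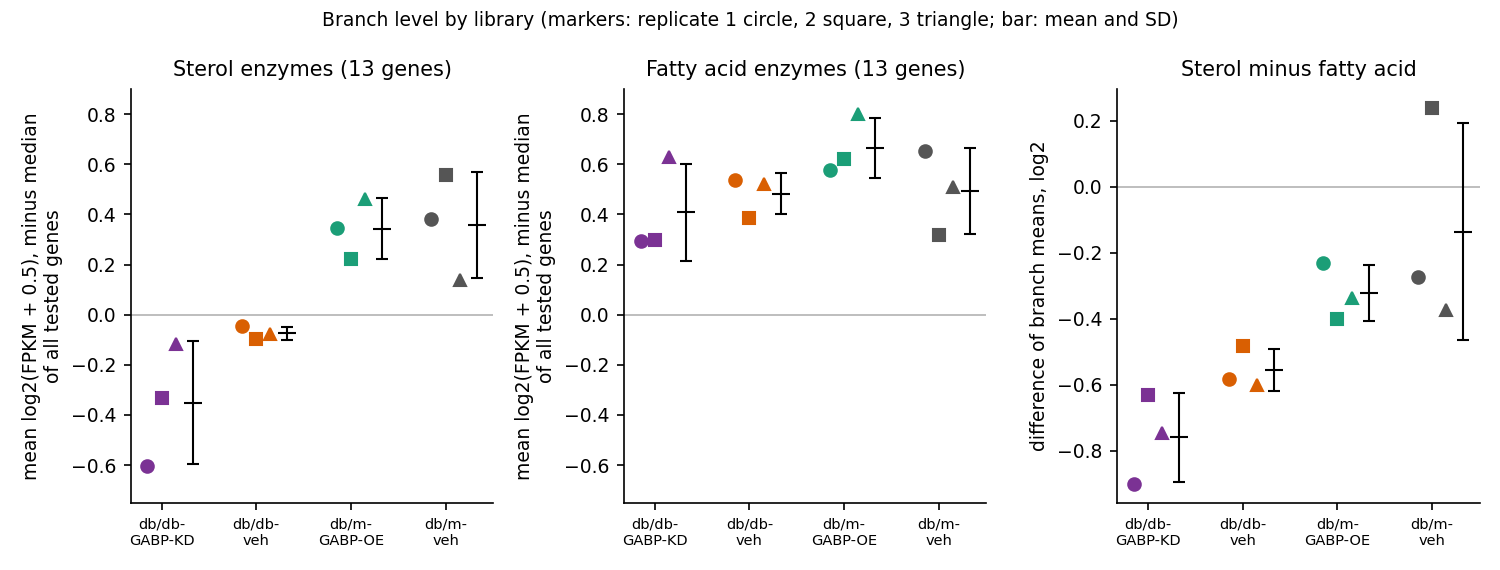
Level of each branch in each library, as the mean log2(FPKM + 0.5) of 13 sterol enzymes (left) and 13 fatty acid enzymes (middle) minus the median of all tested genes, and the sterol minus fatty acid difference (right, log2); points are libraries, bars the mean and SD of 3. The sterol level is below 0 in all 6 db/db libraries and above 0 in all 6 db/m libraries, while the fatty acid level overlaps between db/db-veh and db/m-veh.

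Between the vehicle groups, which asks how the diabetic kidney differs from the lean one, all 13 measured sterol enzymes had lower values in db/db-veh, and no gene of either branch passed the test. The sterol enzymes had a median log2 fold change of -0.63 and the fatty acid enzymes one of -0.15, against -0.24 over all genes. After median of ratios the medians were -0.38 for sterol enzymes and 0.10 for fatty acid enzymes, against 0.01. The place of the fatty acid median above that of all genes turned when any of 5 single libraries was left out. Relative to the all-gene median, 12 of 13 sterol enzymes and 5 of 13 fatty acid enzymes lay below it. Under limma with adjusted p, 0 of 31 members were called, against 0.031% of all genes called higher and 0.062% called lower. At an unadjusted p under 0.05, 5 of 31 members were lower, 16.1%, and 0 were higher, against 10.7% and 0.799% of all genes. In db/db-veh, 5 members lay wholly below their db/m-veh range and 0 wholly above it, against 14.4% and 1.46% of all genes. Median of ratios left 2 wholly below (Hmgcs1 and Scd2) and put 2 wholly above (Scap and Acacb), against 9.03% and 8.3% of all genes. In bulk kidney, fewer cells of a type and less RNA per cell cannot be told apart. Markers of other cell types also differed between these groups. The 4 red blood cell markers summed to 125 to 325 FPKM in db/db-veh and 572 to 1144 FPKM in db/m-veh, with a median log2 fold change of -1.70. The 7 adipocyte markers summed to 5.90 to 30.3 FPKM in db/db-veh and 4.16 to 11.7 FPKM in db/m-veh, and all 4 that could be tested had positive log2 fold changes, with a median of 0.95. One of them, Adipoq, which encodes the fat-cell hormone adiponectin, stood at 2.88, 0.470 and 0.189 FPKM in db/db-veh and at 0 in all of db/m-veh. The 3 podocyte markers summed to 3.28 to 7.95 FPKM in db/db-veh and 6.28 to 27.4 FPKM in db/m-veh, with a median of -1.12. None of these markers was called. The 5 proximal tubule markers, for which no fold change is given here, summed to 169 to 499 FPKM in db/db-veh and 229 to 909 FPKM in db/m-veh. One of them, Slc34a1, stood at 425, 133 and 365 FPKM in db/db-veh and at 698, 187 and 390 FPKM in db/m-veh. Library db/m-veh 1 was thus the highest of its group for Slc34a1, as it was for Hmgcs1. The part of all these markers in the values of the 2 branches was not tested.

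Hmgcs1 (GRCm38, chr13:119690379-119708260) had the smallest p of all members between the vehicle groups. It stood at 8.44, 5.37 and 6.83 FPKM in db/db-veh and at 42.9, 13 and 17.5 FPKM in db/m-veh. The groups did not overlap, and db/m-veh 1 was far above the other 2 of its group. The log2 fold change was -1.59 (SE 0.43, 95% interval -2.50 to -0.68, limma adjusted p = 0.24), and -1.23 after median of ratios (adjusted p = 0.20). Without db/m-veh 1 it was -1.10, with a limma adjusted p of 0.45. Across the 22 alternatives the limma adjusted p was 0.0281 to 0.637, below 0.05 with library weights alone. Hmgcs1 supplied 26.1%, 33.1% and 24.3% of the summed FPKM of the sterol enzymes in db/db-veh, and 56.4%, 30.3% and 38.2% in db/m-veh.

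Further along the branch, Cyp51, the lanosterol demethylase, stood at 1.97, 0.558 and 0.737 FPKM in db/db-veh and at 3.76, 3.86 and 1.26 FPKM in db/m-veh. The groups overlapped through db/db-veh 1 and db/m-veh 3, and the log2 fold change was -1.11 (SE 0.43, limma adjusted p = 0.32). Msmo1, the sterol C4 methyl oxidase that acts after Cyp51, stood at 0.672, 0.549 and 0.593 FPKM in db/db-veh and at 0.908, 1.84 and 1.78 FPKM in db/m-veh. These groups did not overlap, with a log2 fold change of -0.83 (SE 0.31, limma adjusted p = 0.32), though they did overlap after median of ratios. Idi1, the isopentenyl diphosphate isomerase, and Mvk, the mevalonate kinase, were the other sterol enzymes without overlap. Idi1 averaged 0.615 ± 0.437 FPKM in db/db-veh and 1.34 ± 0.618 FPKM in db/m-veh, and Mvk 1.01 ± 0.333 FPKM in db/db-veh and 1.80 ± 0.174 FPKM in db/m-veh (SD, n = 3 each). Both overlapped after median of ratios. The Idi1 values rest on 21, 23 and 3 fragments in db/db-veh and on 34, 49 and 30 fragments in db/m-veh. The other 8 measured sterol enzymes had log2 fold changes from -0.77 (Nsdhl) to -0.09 (Fdft1).

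The fatty acid enzymes had values of both signs between the vehicle groups. Scd2 and Scd1 are neighbouring genes on chromosome 19 for stearoyl-CoA desaturases, which place the double bond of oleate and palmitoleate. Scd2 (GRCm38, chr19:44293674-44306864) stood at 2.27, 1.40 and 1.62 FPKM in db/db-veh and at 2.74, 5.53 and 6.33 FPKM in db/m-veh. The groups did not overlap, as deposited and after median of ratios, with log2 fold changes of -1.19 (SE 0.40, limma adjusted p = 0.27) and -0.90 (adjusted p = 0.25). Scd1 (GRCm38, chr19:44394455-44407879) stood at 3.56, 1.54 and 1.22 FPKM in db/db-veh and at 1.63, 1.62 and 1.03 FPKM in db/m-veh, with a log2 fold change of 0.35 (SE 0.43, limma adjusted p = 0.81). Its groups overlapped.

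Acacb (GRCm38, chr5:114146535-114250761) was the fatty acid enzyme with the largest positive value, at 3.64, 1.41 and 2.45 FPKM in db/db-veh and 1.59, 0.838 and 1.32 FPKM in db/m-veh. As deposited the groups overlapped, with a log2 fold change of 0.73 (SE 0.36, limma adjusted p = 0.45). After median of ratios they did not overlap, and the log2 fold change was 1.06 (SE 0.25, 95% interval 0.51 to 1.61, limma adjusted p = 0.13). Elovl1 averaged 6.60 ± 3.28 FPKM in db/db-veh and 11.8 ± 4.89 FPKM in db/m-veh (SD, n = 3 each), with a log2 fold change of -0.83 (limma adjusted p = 0.55). Fasn, the fatty acid synthase, averaged 1.22 ± 0.659 FPKM in db/db-veh and 1.34 ± 0.452 FPKM in db/m-veh. The remaining 8 enzymes had log2 fold changes from -0.67 (Fads2) to 0.04 (Gpam).

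The regulators had log2 fold changes from -0.60 to -0.15 in db/db-veh. Their median was -0.32, against -0.24 over all genes, with 3 of the 5 below the all-gene median and 2 above it. Srebf2 stood at 3.35, 1.61 and 3.39 FPKM in db/db-veh and at 5.16, 3.13 and 4.90 FPKM in db/m-veh, with a log2 fold change of -0.60 (SE 0.41, limma adjusted p = 0.62). Insig1, the sterol-dependent anchor that SREBP-2 itself induces, had one of -0.46 (SE 0.36, limma adjusted p = 0.67), and Srebf1 one of -0.32 (SE 0.52, limma adjusted p = 0.87). After median of ratios these 3 were at -0.29, -0.15 and -0.01. Scap, the SREBP escort, and Stard4, a cytosolic sterol carrier, had values of -0.19 and -0.15.

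**Figure D2:**
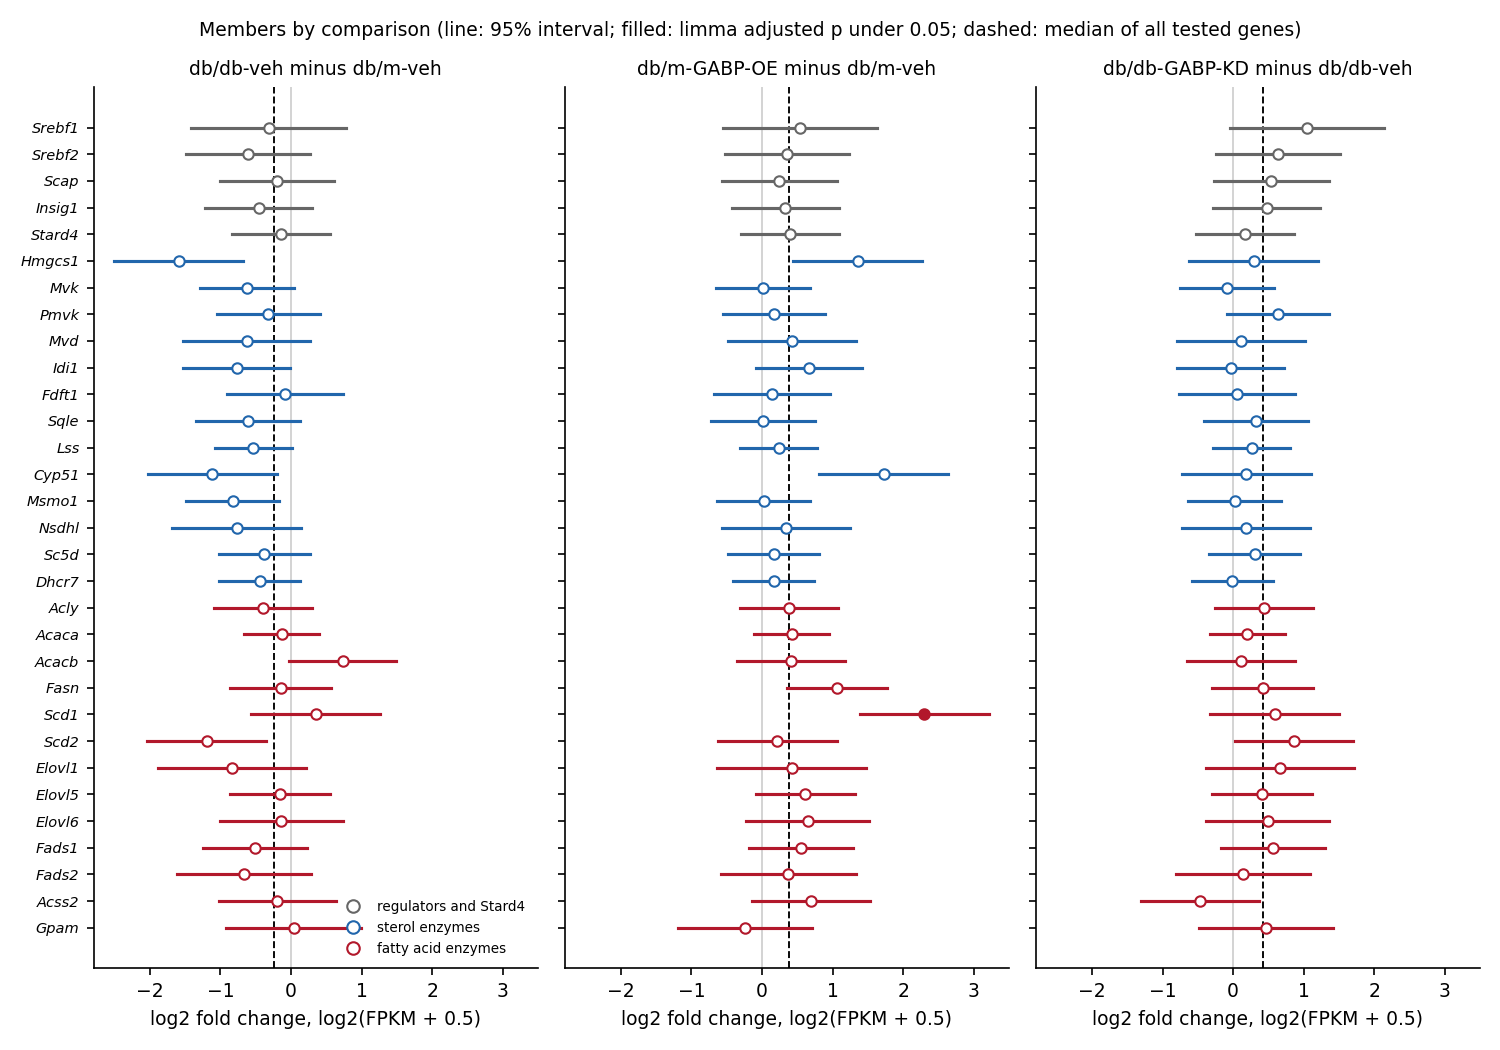
Log2 fold change on the log2(FPKM + 0.5) scale of the 31 tested genes in 3 comparisons, with 95% intervals (lines), the all-gene median (dashed) and filled points for a limma adjusted p under 0.05. Scd1 with GABP-OE at 2.30 is the only filled point, and 12 of 13 sterol enzymes lie left of the dashed line between the vehicle groups.

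GABP overexpression in db/m mice was set against db/m-veh to ask which genes move when GABP is raised in the lean kidney. Scd1 rose, and it was the one member of 31 that passed the test. Scd1 stood at 7.76, 7.65 and 11.7 FPKM in db/m-GABP-OE and at 1.63, 1.62 and 1.03 FPKM in db/m-veh. These values rest on 343, 363 and 491 fragments in db/m-GABP-OE and on 73, 54 and 47 fragments in db/m-veh. As deposited, all 3 db/m-GABP-OE libraries were also above all 6 db/db libraries, of which db/db-GABP-KD 3 was highest at 6.54 FPKM. This did not hold after median of ratios, where db/db-GABP-KD 3 was at 7.16 and db/m-GABP-OE 1 and 2 were at 6.18 and 5.88. The log2 fold change was 2.30 (SE 0.43, 95% interval 1.39 to 3.21, limma adjusted p = 0.0126), a ratio of means of 6.33. Of all genes, 1.85% were called higher and 0.0543% lower, so 1 call among 31 genes is near that background. Scaled by median of ratios, Scd1 still did not overlap between groups, but its log2 fold change of 1.89 (SE 0.48) had a limma adjusted p of 0.18 and was not called. On that scale 0 of 31 members were called, against 0.163% of all genes higher and 0.0465% lower. The call also ended without db/m-veh 3 (limma adjusted p = 0.0862), without db/m-GABP-OE 2 (0.0534) and without db/m-GABP-OE 3 (0.0673).

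Markers of fat and immune cells were higher in the same db/m-GABP-OE libraries. The 7 adipocyte markers summed to 18.2 to 30.5 FPKM in db/m-GABP-OE and 4.16 to 11.7 FPKM in db/m-veh, and the 4 of them that could be tested had positive log2 fold changes. Fabp4, which endothelial cells also express, held 12.4, 11.1 and 11.1 FPKM of these sums in db/m-GABP-OE and 3.51, 10.9 and 7.13 FPKM in db/m-veh. Cfd, the adipocyte factor adipsin, was called, at 8.77, 17.2 and 6.06 FPKM in db/m-GABP-OE and 0.593, 0.796 and 0.116 FPKM in db/m-veh (log2 fold change 3.42, limma adjusted p = 0.0355). Adipoq stood at 0.802, 0.672 and 0.843 FPKM in db/m-GABP-OE and at 0 in db/m-veh, while Lep (leptin) was at 0 in both groups. The 3 macrophage markers summed to 17.5 to 24.6 FPKM in db/m-GABP-OE and 4.42 to 8.36 FPKM in db/m-veh. The 2 thick ascending limb markers summed to 148 to 155 FPKM in db/m-GABP-OE and 64.0 to 86.1 FPKM in db/m-veh. Other markers went the other way. The 4 red blood cell markers summed to 285 to 918 FPKM in db/m-GABP-OE and 572 to 1144 FPKM in db/m-veh. Their median log2 fold change was -1.10, and -1.45 after median of ratios. The 2 collecting duct markers had a median of -0.50, and none of these was called. The 5 proximal tubule markers summed to 356 to 533 FPKM in db/m-GABP-OE, inside the db/m-veh range of 229 to 909 FPKM. The part of these cell types in the Scd1 result was not tested. In the db/db libraries, db/db-veh 1 had the highest Adipoq (2.88 FPKM) with Scd1 at 3.56 FPKM, and db/db-GABP-KD 3 had Adipoq and Cfd at 0 with Scd1 at 6.54 FPKM. Other markers of the list were not at 0 there: all 7 summed to 7.28 to 9.71 FPKM in the db/db-GABP-KD libraries, against 5.90 to 30.3 FPKM in db/db-veh.

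**Figure D3:**
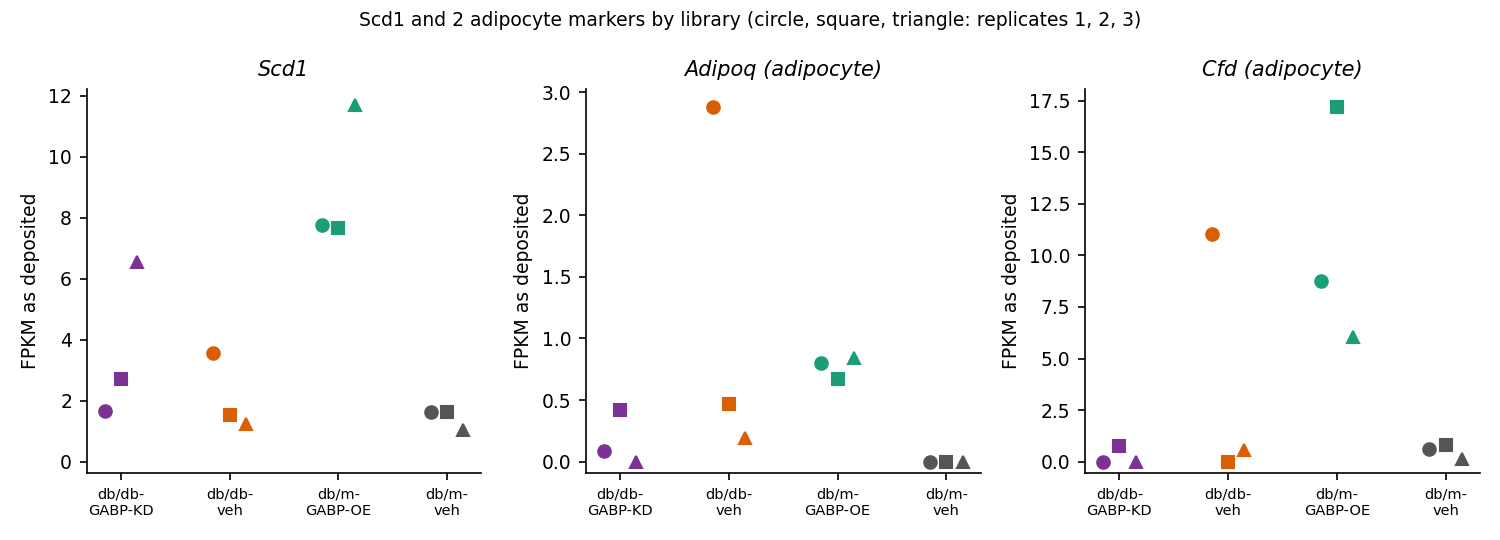
FPKM as deposited of Scd1 (left) and of the adipocyte markers Adipoq (middle) and Cfd (right) in each library; circles, squares and triangles are replicates 1, 2 and 3. All 3 are higher in every db/m-GABP-OE library than in every db/m-veh library, and db/db-GABP-KD 3 has Scd1 at 6.54 FPKM with both markers at 0. The full list of 7 adipocyte markers sums to 7.28 to 9.71 FPKM in the db/db-GABP-KD libraries.

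The other fatty acid enzymes did not pass the test with GABP-OE. Fasn stood at 3.52, 3.40 and 2.88 FPKM in db/m-GABP-OE and at 1.59, 0.818 and 1.61 FPKM in db/m-veh, without overlap under either scaling. Its log2 fold change was 1.06 (SE 0.34, limma adjusted p = 0.13), and 0.71 after median of ratios (adjusted p = 0.44). Elovl5, which elongates polyunsaturated fatty acids, averaged 5.63 ± 0.473 FPKM in db/m-GABP-OE and 3.57 ± 0.984 FPKM in db/m-veh (SD, n = 3 each), with a log2 fold change of 0.61 (SE 0.33, limma adjusted p = 0.40). Scd2, the neighbour of Scd1, stood at 5.33, 5.49 and 5.50 FPKM in db/m-GABP-OE, inside the db/m-veh range, with a log2 fold change of 0.22 (SE 0.40). Gpam, the mitochondrial glycerol-3-phosphate acyltransferase, was the only fatty acid enzyme with a negative value as deposited, at -0.24 (SE 0.45). The median over the 13 enzymes was 0.42, against 0.38 over all genes, and 10 of the 13 lay above the all-gene median. On the scale of median of ratios it was 0.16, against 0.04.

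In the sterol branch, Cyp51 and Hmgcs1 stood apart from their neighbours with GABP-OE. Cyp51 (GRCm38, chr5:4081145-4104746) stood at 8.20, 8.03 and 15.3 FPKM in db/m-GABP-OE and at 3.76, 3.86 and 1.26 FPKM in db/m-veh. The groups did not overlap under either scaling, and the log2 fold change was 1.72 (SE 0.43, 95% interval 0.81 to 2.63, limma adjusted p = 0.0504), which missed the threshold of 0.05. Scaled by median of ratios, it was 1.30 (SE 0.43, limma adjusted p = 0.35). The limma adjusted p of Cyp51 was below 0.05 with a pseudocount of 1 (0.034), with library weights (0.000329), without db/db-GABP-KD 1 (0.028) and without db/db-GABP-KD 3 (0.046). Hmgcs1 stood at 57.5, 62.2 and 48.0 FPKM in db/m-GABP-OE and at 42.9, 13 and 17.5 FPKM in db/m-veh. These groups did not overlap as deposited, and overlapped after median of ratios, where db/m-veh 1 was at 44.0 and db/m-GABP-OE 3 at 36.3. The log2 fold change was 1.35 (SE 0.43, limma adjusted p = 0.13), and 1.85 without db/m-veh 1 (limma adjusted p = 0.0272).

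Of the other 11 sterol enzymes measured, 9 lay below the all-gene median with GABP-OE, and Idi1 and Mvd lay above it. Idi1 averaged 2.38 ± 0.725 FPKM in db/m-GABP-OE and 1.34 ± 0.618 FPKM in db/m-veh (SD, n = 3 each), with a log2 fold change of 0.66 (SE 0.36, limma adjusted p = 0.40). Msmo1, Mvk and Sqle, the squalene epoxidase, had log2 fold changes of 0.03, 0.02 and 0.01. The median over the 13 sterol enzymes was 0.17, against 0.38 over all genes. With median of ratios scaling 4 had positive and 9 negative values, with a median of -0.12. Over both branches and the regulators, 4 of 31 members (12.9%) had an unadjusted p under 0.05 and higher values and 0 had lower ones, against 14.5% and 0.504% of all genes. In db/m-GABP-OE, 9 members lay wholly above their db/m-veh range and 0 wholly below it, against 30.4% and 0.923% of all genes. Those 9 were Srebf1, Srebf2, Insig1, Hmgcs1, Cyp51, Acaca, Fasn, Scd1 and Elovl5, of which Cyp51, Fasn and Scd1 were still without overlap after median of ratios. On that scale 9.72% of all genes lay wholly above and 4.7% wholly below, where Gpam was the member below.

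Regulators with GABP-OE had log2 fold changes from 0.25 to 0.54. Srebf1 stood at 4.60, 4.92 and 3.66 FPKM in db/m-GABP-OE and at 3.40, 2.14 and 3.14 FPKM in db/m-veh, with a log2 fold change of 0.54 (SE 0.52, limma adjusted p = 0.60). Stard4 had one of 0.39 (SE 0.33, limma adjusted p = 0.57) and Insig1 one of 0.33 (SE 0.36, limma adjusted p = 0.64). With median of ratios scaling these 3 were at 0.16, 0.02 and -0.07.

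**Figure D4:**
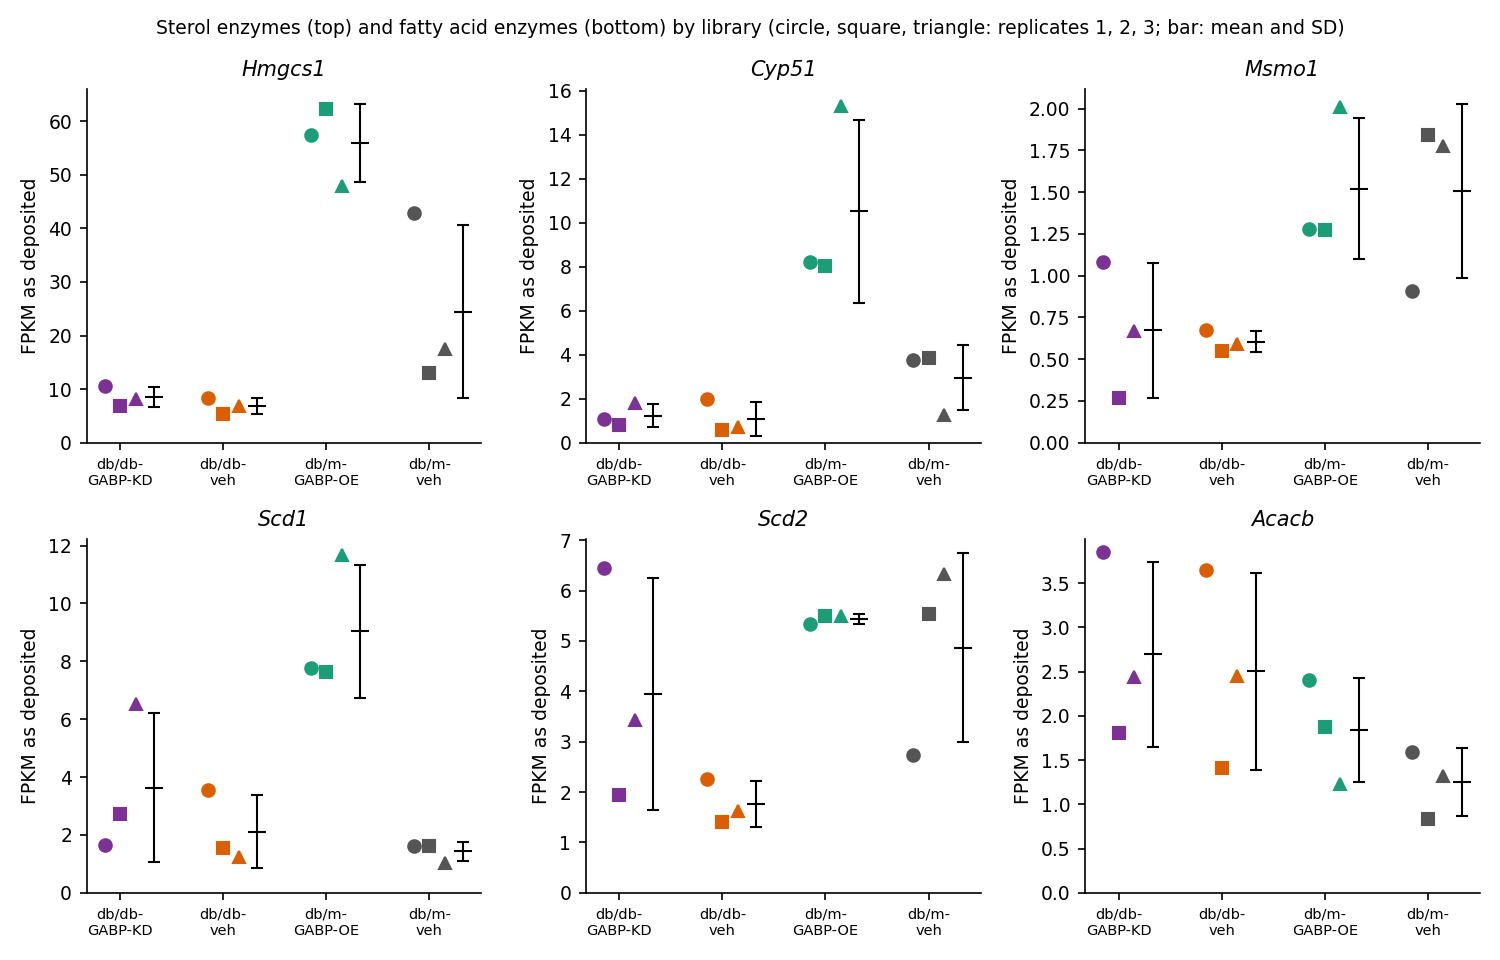
FPKM as deposited of 3 sterol enzymes (Hmgcs1, Cyp51, Msmo1, top) and 3 fatty acid enzymes (Scd1, Scd2, Acacb, bottom) in each library, with the mean and SD of 3 (bars); circles, squares and triangles are replicates 1, 2 and 3. Hmgcs1 is at 5.37 to 10.6 FPKM in all 6 db/db libraries and at 13 to 62.2 FPKM in the 6 db/m libraries, and Scd1 is above 7 FPKM in the db/m-GABP-OE libraries alone.

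In the libraries labelled db/db-GABP-KD, set against db/db-veh to ask what follows a GABP knockdown in the diabetic kidney, no gene of the set passed the test. Nor did any of the 12897 genes in the limma fit as deposited: 0% were called in either direction, with 1839 at an unadjusted p under 0.05. With limma-voom on recovered fragments 0 of 12614 genes were called. Median of ratios called 5 genes, scaling to equal nuclear FPKM sums 6, and library weights 158. The sterol enzymes had a median log2 fold change of 0.18 and the fatty acid enzymes one of 0.44, against 0.42 over all genes. Relative to that all-gene median, 12 of 13 sterol enzymes and 6 of 13 fatty acid enzymes lay below it. After median of ratios the medians were -0.29 for sterol enzymes and -0.09 for fatty acid enzymes, against 0.00. At an unadjusted p under 0.05, 1 of 31 members was higher (3.23%) and 0 were lower, against 13.7% and 0.574% of all genes. In the libraries labelled db/db-GABP-KD, 1 member, Acly, lay wholly above its db/db-veh range and 0 lay below, against 17.3% and 0.822% of all genes. With median of ratios 0 lay above and 1, Acacb, lay below, against 4.63% and 5.67% of all genes. Cell-type markers differed here as well. The 4 red blood cell markers summed to 32.0 to 259 FPKM in db/db-GABP-KD and 125 to 325 FPKM in db/db-veh, with a median log2 fold change of -1.64, and -2.25 after median of ratios, where all 4 lay wholly below their db/db-veh range. Slc12a1, the salt transporter of the thick ascending limb, stood at 19.0, 9.83 and 17.9 FPKM in db/db-GABP-KD and at 89.2, 27.6 and 48.8 FPKM in db/db-veh. Its log2 fold change was -1.69 (limma adjusted p = 0.34), and after median of ratios it was -2.29 and called (limma adjusted p = 0.0232). The 4 adipocyte markers tested had a median of -0.66 and the 3 podocyte markers one of 1.03. The part of these cell types in the members' values was not tested.

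Scd2 was the member with the smallest p there, at 6.46, 1.94 and 3.44 FPKM in db/db-GABP-KD and 2.27, 1.40 and 1.62 FPKM in db/db-veh. The groups overlapped, and the log2 fold change was 0.86 (SE 0.40, limma adjusted p = 0.35), or 0.35 after median of ratios. Srebf1 stood at 16.3, 2.42 and 2.98 FPKM in db/db-GABP-KD and at 2.64, 1.24 and 3.03 FPKM in db/db-veh, with a log2 fold change of 1.05 (SE 0.52, limma adjusted p = 0.35). Libraries db/db-GABP-KD 2 and 3 lay inside the db/db-veh range. Library db/db-GABP-KD 1 was also the highest of its group for Srebf2 (9.25 FPKM), Scap (7.36 FPKM) and Pmvk (3.46 FPKM), the phosphomevalonate kinase. The log2 fold changes were 0.64 for Srebf2 (limma adjusted p = 0.41), 0.54 for Scap (0.43) and 0.64 for Pmvk (0.36). Scd1 stood at 1.65, 2.72 and 6.54 FPKM in db/db-GABP-KD, with a log2 fold change of 0.59 (SE 0.43, limma adjusted p = 0.45). Fads1, the delta-5 desaturase, had one of 0.57 (SE 0.35, limma adjusted p = 0.39). Lss had one of 0.26 (limma adjusted p = 0.55), and Sc5d, the sterol C5 desaturase, one of 0.30 (limma adjusted p = 0.55).

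Acss2, which makes acetyl-CoA from acetate, was the fatty acid enzyme with the most negative value in the libraries labelled db/db-GABP-KD. It stood at 1.65, 2.68 and 3.33 FPKM in db/db-GABP-KD and at 5.31, 3.13 and 2.79 FPKM in db/db-veh, with log2 fold changes of -0.47 (SE 0.39, limma adjusted p = 0.49) and, after median of ratios, -0.97 (adjusted p = 0.69). Hmgcs1 stood at 10.6, 6.82 and 8.17 FPKM in db/db-GABP-KD, overlapping db/db-veh, with a log2 fold change of 0.29 (SE 0.43, 95% interval -0.62 to 1.20). Cyp51 stood at 1.10, 0.792 and 1.80 FPKM in db/db-GABP-KD, with one of 0.19 (SE 0.43, 95% interval -0.73 to 1.10). These intervals leave room for changes of either sign.

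Whether the effects of GABP-OE and GABP-KD differ was tested as GABP-OE effect minus GABP-KD effect, and no member passed, against 0.0853% of all genes called higher and 0.0465% called lower. Scd1 had a difference of 1.71 (SE 0.61, limma adjusted p = 0.59), from effects of 2.30 with GABP-OE and 0.59 with GABP-KD. Cyp51 had a difference of 1.54 (SE 0.61, limma adjusted p = 0.71), from effects of 1.72 and 0.19. Acss2 had a difference of 1.16 (SE 0.56, limma adjusted p = 0.93) from effects of 0.69 and -0.47, and Hmgcs1 one of 1.06 (SE 0.61, limma adjusted p = 1) from effects of 1.35 and 0.29. Idi1 and Fasn had differences of 0.70 and 0.65, and Srebf1, Scap and Srebf2 differences of -0.51, -0.30 and -0.28. At an unadjusted p under 0.05, 2 of 31 members (6.45%) were higher and 0 were lower, against 4.13% and 1.31% of all genes. After median of ratios 4 of 31 were higher and 0 lower at that level, against 633 and 253 of 12897 genes, and 0 members were called. The db/db-veh and db/m-GABP-OE comparisons share the db/m-veh libraries, so the opposite signs of Hmgcs1 (-1.59 and 1.35) and Cyp51 (-1.11 and 1.72) rest on the same 3 control values.

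Other genes of these pathways were counted from 3 lists that hold no member. None of them was called in any of the comparisons. Among 10 further sterol synthesis genes, the median log2 fold change in db/db-veh was -0.26, against -0.24 over all genes, and 1 was lower at an unadjusted p under 0.05, a level that 10.7% of all genes reached. That gene was Ebp, the sterol isomerase, at 2.76 ± 1.43 FPKM in db/db-veh and 5.94 ± 2.34 FPKM in db/m-veh (SD, n = 3 each; log2 fold change -0.99, limma adjusted p = 0.39). With GABP-OE, Ebp averaged 11.1 ± 1.86 FPKM (log2 fold change 0.92, limma adjusted p = 0.33). Hsd17b7, the 3-ketosterol reductase, had a log2 fold change of 0.91 in the libraries labelled db/db-GABP-KD (limma adjusted p = 0.34). With GABP-OE the median of the 10 genes was 0.43, against 0.38 over all genes. In the libraries labelled db/db-GABP-KD it was 0.56, against 0.42. The 13 sterol enzymes of the set, with medians of -0.63, 0.17 and 0.18 in the 3 comparisons, were thus lower than these further genes in each.

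Among 11 further genes of SREBP processing and sterol sensing, the medians were -0.27 in db/db-veh, 0.24 with GABP-OE and 0.41 in the libraries labelled db/db-GABP-KD. Over all genes the medians were -0.24, 0.38 and 0.42. The counts at an unadjusted p under 0.05 were 0, 2 and 3, all higher, against 0.799%, 14.5% and 13.7% of all genes higher at that level. Abca1, the cholesterol efflux pump, stood at 3.95, 2.19 and 1.40 FPKM in db/db-GABP-KD and at 1.31, 0.839 and 0.791 FPKM in db/db-veh (log2 fold change 0.95, limma adjusted p = 0.34). It stood at 1.57, 2.42 and 1.72 FPKM in db/m-GABP-OE and at 0.591, 0.751 and 1.32 FPKM in db/m-veh (log2 fold change 0.81, limma adjusted p = 0.27). Abcg1, which passes cholesterol to HDL, had a log2 fold change of 0.72 with GABP-OE (limma adjusted p = 0.20), and Nr1h3, the sterol sensor LXR alpha, one of -0.74 in db/db-veh (limma adjusted p = 0.49).

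Of 26 further genes of fatty acid and glycerolipid synthesis, 23 were tested, and Elovl3, Elovl4 and Pnpla3 were too low. Their median was -0.53 in db/db-veh, against -0.24 over all genes, with 5 lower and 0 higher at an unadjusted p under 0.05, against 10.7% and 0.799% of all genes. Between the vehicle groups the further genes thus had the fatty acid median below the sterol one of -0.26, the reverse of the members' order. Aacs, which makes acetoacetyl-CoA from ketone bodies for either branch, had the smallest p, at 5.93, 1.82 and 3.68 FPKM in db/db-veh and 16.6, 6.93 and 9.70 FPKM in db/m-veh. Its groups did not overlap under either scaling (log2 fold change -1.46, SE 0.43, limma adjusted p = 0.24). Hsd17b12, the ketoacyl reductase of fatty acid elongation, had a log2 fold change of -0.91 (limma adjusted p = 0.37), and Acsl5, an acyl-CoA synthetase, one of -0.85 (limma adjusted p = 0.41). With GABP-OE the median was 0.42, against 0.38, and 0 genes had an unadjusted p under 0.05, against 14.5% of all genes higher. In the libraries labelled db/db-GABP-KD it was 0.60, against 0.42, with 2 genes higher at that level, where 13.7% of all genes were. These 2 were the acyl-CoA synthetases Acsl4 at 1.02 (limma adjusted p = 0.34) and Acsl5 at 0.83 (limma adjusted p = 0.35).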

How the data were processed

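Poly(A) RNA of mouse kidney was fragmented and read as paired ends by Illumina sequencing, per the labels' protocols. The authors deposited FPKM, 1 value per gene and library. The submitters' processing notes list HTSeq and GRCm39 with no version. The sources used here do not give the aligner, the annotation or the strand setting. Exon lengths of GENCODE M21 (GRCm38) turned the deposited FPKM into whole fragments in all libraries for 98.3% of genes (tolerance 0.05 of a fragment), so coordinates are given in GRCm38. Of 21899 genes, 21795 had a symbol and an exon length. PCR copies cannot be told from separate molecules.

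limma 3.58.1 (R 4.3.3) was fitted to log2(FPKM + 0.5) for the genes that reached 0.3 FPKM in 3 or more libraries, with all 12 libraries in 1 fit, a variance trend and no block. Tests are two-sided, with Benjamini-Hochberg adjustment over 12897 genes and a threshold of 0.05. Fold changes on this scale understate those of low genes. The fit was run on simulated data with planted changes, where all libraries otherwise shared a single profile. That simulation had no differing mitochondrial shares and no outlying library, so it cannot tell how the fit performs with those. Groups not overlapping means that every library of one lies above every library of the other. Members and gene lists were chosen with earlier results of these data known, so no list was tested. Named are the called members and, in each role group, the 3 with the smallest p, and up to 3 genes of each further list. One gene of a further list is not reported here. Alternatives were pseudocounts of 0.1 and 1, no filter, FPKM of 1 as filter, median of ratios (5884 genes), equal nuclear FPKM sums, the replicate number as a block, library weights, no trend, voom on recovered fragments (12614 genes), and each library left out. Tables and permutation tests used scipy 1.17.1, numpy 2.4.6 and pandas 2.3.3 under Python 3.11.15, and figures matplotlib 3.10.9.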

Additional observations from a re-analysis of the deposited data

How the results depend on the processing

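Of 36 values for named genes, each recomputed under 22 alternatives (792 in all), 759 kept their sign and side of the threshold, 18 changed sign, 5 lost and 10 gained a call. For these values too, the replicate block, the fit without trend and leaving out a library of a group not compared cannot change a sign. That part of the agreement in sign was fixed in advance. The sterol enzymes' median lay below that of all genes under all 22 in each comparison, from -0.50 to -0.25 between the vehicle groups, -0.25 to -0.11 with GABP-OE and -0.38 to -0.07 with GABP-KD. Some of the 22 cannot move a branch median: the replicate block, the fit without trend, and leaving out a library of a group not compared. Their agreement was fixed in advance, and only the other alternatives test the median. The fatty acid enzymes' median, 0.086 above that of all genes between the vehicle groups, was -0.059 to 0.17 with a library left out, below 0 without any of db/db-veh 1, 2 and 3 and db/m-veh 2 and 3, and -0.024 without a filter. It was -0.14 with GABP-KD under library weights (0.01 in the fit described) and -0.019 to 0.20 with GABP-OE with a library left out.

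With equal nuclear FPKM sums, signs reversed for Srebf1 (0.27), Srebf2 (0.0057) and Insig1 (0.14) in db/db-veh, Insig1 (-0.19) and Stard4 (-0.10) with GABP-OE, and Scap (-0.092), Lss (-0.015), Sc5d (-0.23) and Fads1 (-0.048) with GABP-KD. With median of ratios they reversed for Insig1 with GABP-OE (-0.071) and Sc5d with GABP-KD (-0.13). The GABP-OE minus GABP-KD difference reversed under library weights for Srebf1 (0.45), Srebf2 (0.32) and Scap (0.18). With 1 library left out it ran from -0.97 to 0.29, -0.55 to 0.21 and -0.56 to 0.16, positive in all 3 without db/db-GABP-KD 1. The Scd1 call was also lost with equal nuclear sums (adjusted p = 0.43).

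Genes called between the vehicle groups (12) numbered 2 without a filter, 22 with median of ratios, 35 with nuclear sums, 642 with library weights, 5 with voom and 2 to 48 with a library left out. With GABP-OE (245) they numbered 62 with pseudocount 0.1, 159 with the FPKM 1 filter, 27 with median of ratios, 15 with nuclear sums, 2757 with weights, 123 without trend, 62 with voom and 39 to 559 with a library left out. With GABP-KD (0) they numbered 1 without a filter, 5, 6 and 158 with those scalings and weights, and 0 to 4 with a library left out. For the difference (17) they numbered 7 without a filter, 10, 7 and 376 with those scalings and weights, 6 without trend, 2 with voom and 1 to 40 with a library left out. The causes were not tested. With library weights, Hmgcs1 (adjusted p = 0.0281), Scd2 (0.0208) and Msmo1 (0.0495) passed in db/db-veh, as did Hmgcs1 (0.000356) and Fasn (0.00312) with GABP-OE.

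Whether replicate numbers pair the libraries was not settled. Deviations of same-numbered libraries correlated at 0.07, 0.38 and 0.12 between the vehicle groups, 0.06, -0.05 and -0.00 for GABP-OE and -0.19, 0.33 and -0.48 for GABP-KD. Not every library correlated best with its own number, but with 3 libraries per group such correlations cannot exclude a pairing. With the replicate block, 13 genes were called between the vehicle groups, 277 with GABP-OE, 0 with GABP-KD and 11 for the difference. A mitochondrial share of up to 86.0% lowers the number of fragments left for nuclear genes. Counts were small for some members: 3 fragments for Idi1 in db/db-veh 3, and 9 for Mvk in db/db-GABP-KD 1. In db/db-veh 2 there were 10 for Pmvk and 16 for Lss.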

Other observations

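Ratios of related genes within a library do not depend on library scaling, and 4 pairs were compared after their values were seen. The Scd1 to Scd2 ratio was 0.255, 1.40 and 1.90 in db/db-GABP-KD, against 1.57, 1.10 and 0.756 in db/db-veh. It was 1.46, 1.39 and 2.13 in db/m-GABP-OE, against 0.595, 0.293 and 0.163 in db/m-veh. Every db/db-veh and every db/m-GABP-OE library lay above every db/m-veh library. The log2 difference to db/m-veh was 1.84 for db/db-veh and 2.42 for db/m-GABP-OE. The exact two-sided permutation p was 0.1 in each, the smallest that 3 against 3 libraries allow, or 0.24 after Benjamini-Hochberg adjustment over 12 comparisons. Groups of 3 without overlap always give this p, so here and below it adds nothing to the lack of overlap. As deposited, the log2 fold change in db/db-veh was 0.35 for Scd1 and -1.19 for Scd2, and in db/m-GABP-OE it was 2.30 for Scd1 and 0.22 for Scd2.

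The Acacb to Acaca ratio averaged 7.01 ± 2.00 in db/db-veh and 3.01 ± 1.08 in db/m-veh (SD, n = 3 each), without overlap (exact permutation p = 0.1, adjusted 0.24). It averaged 5.83 ± 1.80 in db/db-GABP-KD, and the average for db/m-GABP-OE was 2.69 ± 1.37. The Srebf1 to Srebf2 ratio averaged 0.819 ± 0.0648 in db/db-veh, and 0.776 ± 0.0827 in db/m-GABP-OE, against 0.660 ± 0.0220 in db/m-veh (SD, n = 3 each). Neither db/db-veh nor db/m-GABP-OE overlapped db/m-veh, with exact permutation p of 0.1 each (adjusted 0.24). The Fads2 to Fads1 ratio overlapped in all 3 comparisons.

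Hmgcs1 made up 28.6% ± 0.556 of the summed sterol enzyme FPKM in db/db-GABP-KD, against 27.8% ± 4.63 in db/db-veh. It made up 55.9% ± 7.47 in db/m-GABP-OE, against 41.6% ± 13.4 in db/m-veh (SD, n = 3 each). The lowest db/m-veh library, at 30.3%, lay below the highest db/db-veh library, at 33.1%.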
